A study of Homo sapiens with 3 samples.

Results

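Long intergenic non-coding RNA (lincRNA) genes that lie apart from every other listed gene were examined in a PAR-CLIP experiment on CTCF, a DNA-binding protein with zinc fingers that shapes chromatin loops, in U2OS human osteosarcoma cells. Of the 17201 genes in the deposited table, 866 were annotated as lincRNA, and 534 of these had an interval that overlapped no other listed interval. After 8 genes treated as separate subjects were left out by name (MALAT1, NEAT1, CYTOR, LINC02055 and 4 genes with SNHG symbols), 526 remained, or 3.06% of the listed genes, and these are called stand-alone lincRNA genes here. The rule used position, annotation and those names, and no count threshold beyond the table's own floor of 6 counts, which every listed gene reached. The genes left out by name include the highest of the 534, with 6801 counts, where the highest of the 526 had 645. The class thus lacks the top of the stand-alone lincRNA counts. Because each interval is free of other listed genes, the ambiguity of reads shared with an overlapping listed gene does not apply to these counts. Reads of a nearby gene that run past its annotated end could still be counted, and this was not tested. By current symbol, RefSeq classes 229 of the 526 as lncRNA and 6 as protein-coding, and 285 have no entry by symbol, so the class follows the table's own annotation.

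The series asked which RNAs contact CTCF directly. Cells had been fed 400 µM 4-thiouridine for 16 to 24 h, irradiated at 365 nm so that the labelled RNA became linked to bound protein, and CTCF was then precipitated from nuclear lysates. The only group used was the merge of 2 biological replicates, which were precipitated with different lots of 1 antibody, in 1 cell line for which the labels name no change of genotype and no other treatment. With 1 merged sample there is no replicate error, no test between groups was possible and no p-value is given. No control precipitation, input or RNA abundance was analysed here, so a count describes how much RNA was recovered and not enrichment over what the nucleus holds. Intervals given are exact 95% Poisson intervals for counts and exact 95% Clopper-Pearson intervals for shares. They cover counting error only, and amplified reads are not independent molecules.

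LincRNAs are transcribed from their own promoters between protein-coding genes, are often spliced, and as a class are less abundant and more tissue-restricted than mRNAs. Many stay in the nucleus near the site of their synthesis, while some are exported and act in the cytoplasm. Some serve as precursors of microRNAs, and others, called divergent transcripts, start back to back with a protein-coding gene.

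RefSeq promoter windows (GRCh38.p14), which run from 250 bases before to 50 bases after an annotated start, were found by symbol for 158 of the 526 genes. Of the 20 stand-alone lincRNA genes with the highest counts, 10 have such a window. Of these 10, 4 chosen by name are shown as examples, because the last 50 bases are the start of the RNAs themselves. Capitals mark those 50 bases.
NORAD: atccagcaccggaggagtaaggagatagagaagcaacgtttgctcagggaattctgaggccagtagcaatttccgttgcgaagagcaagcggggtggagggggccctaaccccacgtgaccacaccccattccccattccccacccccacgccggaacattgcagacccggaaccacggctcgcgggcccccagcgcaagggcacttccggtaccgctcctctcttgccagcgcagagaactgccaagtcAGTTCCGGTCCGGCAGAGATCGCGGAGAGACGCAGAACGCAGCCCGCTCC
LINC00662: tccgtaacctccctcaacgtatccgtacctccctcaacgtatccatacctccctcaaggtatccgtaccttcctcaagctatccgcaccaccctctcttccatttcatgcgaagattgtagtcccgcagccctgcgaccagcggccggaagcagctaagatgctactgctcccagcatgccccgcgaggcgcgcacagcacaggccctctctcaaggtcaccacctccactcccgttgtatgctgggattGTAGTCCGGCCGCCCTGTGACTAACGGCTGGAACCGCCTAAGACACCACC
MIR222HG: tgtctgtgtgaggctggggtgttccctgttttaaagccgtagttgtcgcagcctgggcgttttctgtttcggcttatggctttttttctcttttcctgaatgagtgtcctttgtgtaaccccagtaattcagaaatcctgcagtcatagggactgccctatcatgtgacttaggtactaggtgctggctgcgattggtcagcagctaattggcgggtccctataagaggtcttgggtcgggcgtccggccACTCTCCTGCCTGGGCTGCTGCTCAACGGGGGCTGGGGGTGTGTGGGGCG
PURPL: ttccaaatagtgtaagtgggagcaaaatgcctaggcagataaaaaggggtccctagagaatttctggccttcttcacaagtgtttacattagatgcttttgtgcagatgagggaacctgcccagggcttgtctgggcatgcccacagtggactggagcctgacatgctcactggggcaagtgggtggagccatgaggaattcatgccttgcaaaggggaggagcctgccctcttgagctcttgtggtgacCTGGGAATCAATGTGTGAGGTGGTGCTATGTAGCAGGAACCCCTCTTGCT
The windows are those of NORAD at chr20:36050911-36051210 (- strand), LINC00662 at chr19:27793891-27794190 (- strand), MIR222HG at chrX:45770218-45770517 (- strand) and PURPL at chr5:27472042-27472341 (+ strand), all in GRCh38.p14, whereas every gene interval below is in hg19. G and C made up 63.0% of the NORAD window, 59.3% of the LINC00662 window, 54.7% of the MIR222HG window and 52.0% of the PURPL window. Crosslinking in PAR-CLIP takes place at 4-thiouridine, which replaces uridine. Thymine, read as uridine in the RNA, made up 10.0% of the first 50 transcribed bases of NORAD, 14.0% in LINC00662, 22.0% in MIR222HG and 28.0% in PURPL, beside a median of 20.0% over the 179 windows of stand-alone lincRNA genes and 20.0% over all 35116 windows in the table. The median share of G and C was 52.0% in the windows of stand-alone lincRNA genes (quartiles 42.0 and 66.0%), 64.7% in those of stand-alone protein-coding genes and 58.7% in all.

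Most stand-alone lincRNA genes had low counts, and a few had far higher ones. Their counts ran from 6 to 645 with a median of 14 and quartiles of 9 and 26, and they summed to 15174, which is 1.15% of the 1322047 counts of all listed genes. There were 348 genes (66.2%) with 20 counts or fewer, and 51 (9.70%) stood at the floor of 6. A count of 100 or more was reached by 20 of the 526 genes, or 3.80% (2.34 to 5.81%), where 20.5% of all listed genes reached it. A count of 10 or more was reached by 365, or 69.4%, where 84.0% of all listed genes did. The median of all listed genes was 31, and 107 stand-alone lincRNA genes (20.3%) exceeded it. Only 7 were among the 1000 highest genes of the table. With the 8 genes left out by name kept in, the 534 genes summed to 25007 counts, or 1.89% of all. Their median was 14 and their highest count 6801, and 4.49% of them had 100 counts or more.

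Other classes of gene that overlap no listed gene are given for comparison, without a test since genes are not replicates. Antisense genes of this kind (281) had a median of 13, pseudogenes (1230) of 13 and protein-coding genes (7982) of 38. Counts of 100 or more were found in 3.20% of these antisense genes, 4.47% of the pseudogenes and 23.6% of the protein-coding genes. The 332 lincRNA genes that do overlap another listed gene had a median of 20, and 13.9% of them had 100 counts or more, but their counts can hold reads of the gene they overlap. In the distribution of counts by class, stand-alone lincRNA genes and stand-alone antisense genes ran close together up to about 100 counts. The highest antisense gene had 237 counts, a value that 8 stand-alone lincRNA genes exceeded.

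**Figure D1:**
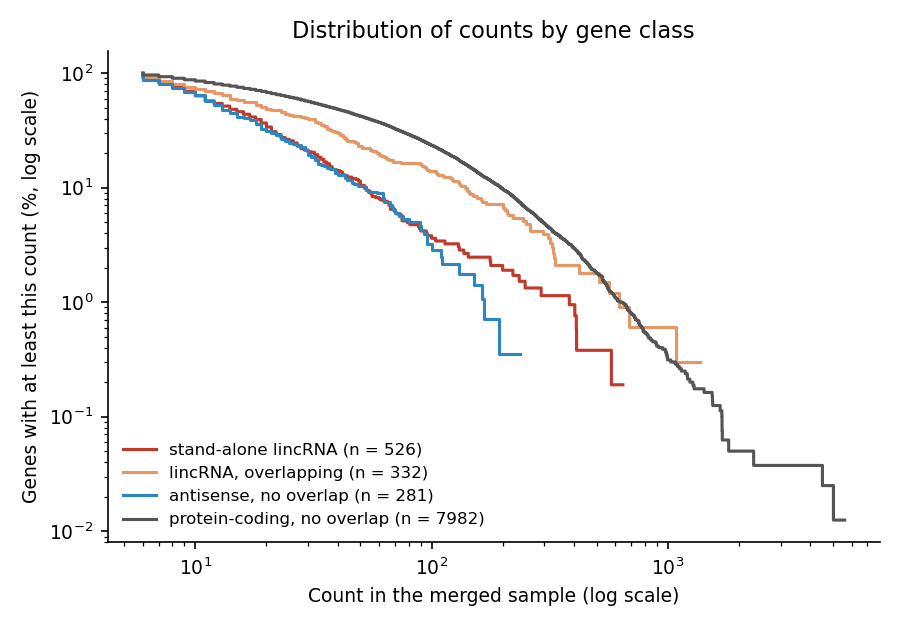
Share of genes (percent, log scale) with at least a given count (log scale) in the merged sample, for stand-alone lincRNA genes (n = 526), lincRNA genes that overlap another listed gene (n = 332), and antisense (n = 281) and protein-coding genes (n = 7982) that overlap none. The red line of stand-alone lincRNA genes lies below the protein-coding line over its whole course and ends at 645 counts.

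The counts were concentrated in the leading genes. Within the 526 genes, the 10 highest held 25.2% (24.5 to 25.9%) of the summed count, the 20 highest 34.5% and the 50 highest 48.4%. No such share was computed with the 8 left-out genes kept in. The first of the 526 was LINC00452, with 645 counts (596 to 697) over 26.2 kb of chromosome 13 (114598076 to 114624290). Its nearest listed gene, the lincRNA SWINGN, lies 5.196 kb away and had 17. LINC00662, a lincRNA reported in several cancers, had 577 counts (531 to 626) over 109 kb of chromosome 19 (28175488 to 28284286). Its nearest neighbour LINC02987, which starts on the opposite strand 0.084 kb away, had 54. These 2 genes together with the next 3 held 16.1% of the summed count.

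NORAD, a lincRNA that is known to bind Pumilio proteins and to guard chromosome number, and that acts largely in the cytoplasm, had 411 counts (372 to 453) over 5.34 kb of chromosome 20 (34633544 to 34638882). This is 77.0 counts per kb, where the other genes among the 10 highest had 31.3 per kb or fewer. The unnamed gene ENSG00000254998 had nearly the same count, 410 (371 to 452), but in an interval of 374 kb of chromosome 11 (105028654 to 105402424), which is 1.10 counts per kb. Where in an interval the reads lie is not known from these counts. LINC02476 had 404 counts (366 to 445) over 203 kb of chromosome 7 (119344610 to 119547429), with no listed gene nearer than TSPAN12, 880 kb away, which had 13. The intervals of NORAD, ENSG00000254998, LINC02476 and MIR924HG (383 counts, 346 to 423) overlap, so their order is not resolved at this depth.

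Further genes with 100 counts or more included PURPL, a lincRNA that p53 induces and that in turn restrains p53, a tumour suppressor. PURPL had 178 counts (153 to 206) over 13.9 kb of chromosome 5 (27472399 to 27486253), in a stretch where the nearest listed gene is 1297 kb away. LINC00958, reported in bladder cancer, had 177 counts (152 to 205) on chromosome 11 (12984057 to 13011094), at 24.5 kb from TEAD1, a transcription factor gene of the Hippo pathway with 1212. LINC01505 had 235 counts over 326 kb of chromosome 9, and LINC00299 had 143 over 317 kb of chromosome 2. LINC02228 had 131 counts over 64.4 kb of chromosome 5, LINC02742 had 114 over 342 kb of chromosome 11, and LINC00862 had 104 over 31.2 kb of chromosome 1. Genes with no name in the tables used here filled the other places: ENSG00000259758 had 291 counts over 9.35 kb of chromosome 8, ENSG00000260604 had 221 over 7.07 kb of chromosome 6, and ENSG00000236030 had 200 over 267 kb of chromosome 1. ENSG00000255322 (137 counts, chromosome 11) and ENSG00000233358 (100 counts, chromosome 6) were the others. ENSG00000259758 lies 1.66 kb from AGO2, the gene of the Argonaute protein that slices target RNAs, which had 506 counts. Whether reads of AGO2 past its annotated end are among the 291 counts was not tested.

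**Figure D2:**
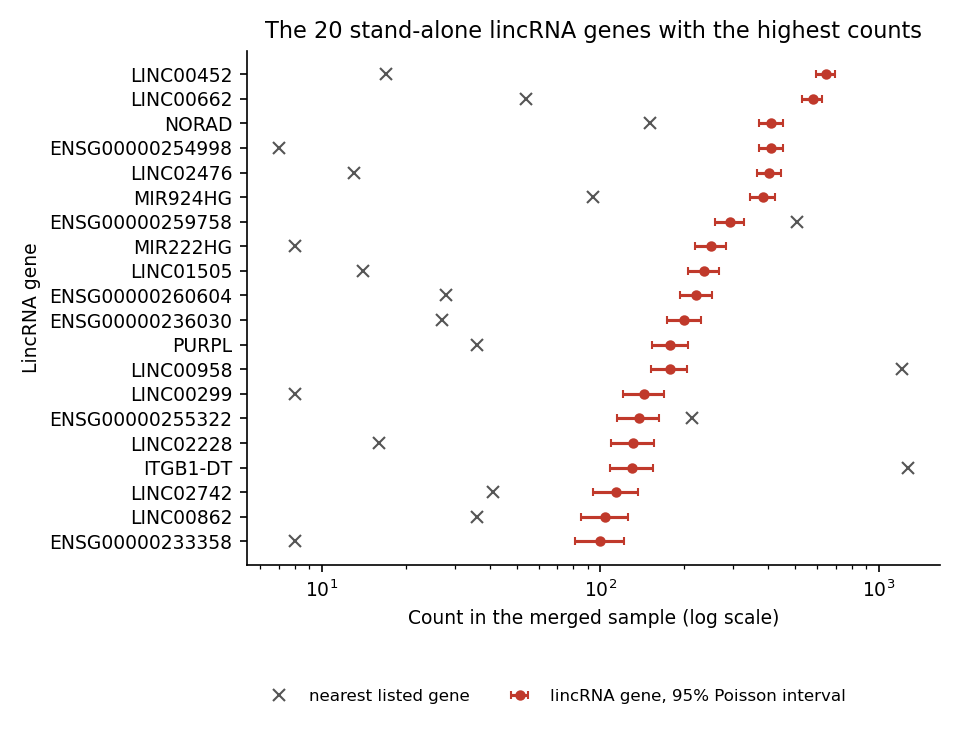
Counts (log scale) of the 20 stand-alone lincRNA genes with the highest counts, as red points with exact 95% Poisson intervals, and of the nearest listed gene of each, as grey crosses. In 4 of the 20 (ENSG00000259758, LINC00958, ENSG00000255322 and ITGB1-DT) the nearest listed gene had the higher count.

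Counts per kb of interval picked out short genes. The highest value belonged to ENSG00000270066, with 48 counts (35.4 to 63.6) in 0.427 kb of chromosome 1 (109642815 to 109643241), or 112 counts per kb. ENSG00000269900 had 24 counts (15.4 to 35.7) in the shortest interval of all, 0.268 kb of chromosome 9 (35657748 to 35658015), or 89.6 per kb. Neither gene has a RefSeq entry by symbol. Which RNA these short intervals hold was not checked beyond the annotation as lincRNA. NORAD was the third at 77.0 per kb and the only one of these first 3 with more than 100 counts. ENSG00000271762 followed with 66 counts in 1.35 kb of chromosome 5 (49.0 per kb). It lies 0.561 kb from LUCAT1, a stress-induced lincRNA, which had 37 counts over 9.47 kb, or 3.91 per kb. ENSG00000261452 on chromosome 2 had 89 counts in 1.94 kb (45.8 per kb) and LINC01029 on chromosome 18 had 55 in 1.25 kb (44.0 per kb). ENSG00000260604 and ENSG00000259758 reached 31.3 and 31.1 per kb, and ENSG00000224818 and ENSG00000267427 had 27.5 and 25.2.

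At the other end stood very long intervals with few counts. ENSG00000231918, the longest at 1375 kb of chromosome 2 (51259739 to 52635055), had 11 counts (5.49 to 19.7). ENSG00000271955, also on chromosome 2, had 11 over 882 kb, and ENSG00000258109 on chromosome 12 had 12 over 731 kb. LINC00276 had 29 over 690 kb of chromosome 2. MIR924HG, the fifth longest at 593 kb, had 383. Among the 5 longest genes the count per kb thus ran from 0.0080 to 0.645. Among the 5 shortest, LINC00460, a lincRNA reported in cancer, had 7 counts (2.81 to 14.4) in 0.813 kb. ENSG00000270022, which has no RefSeq entry by symbol and was likewise not checked further, had 14 in 0.664 kb.

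Length went with the count only weakly in this class. Across the 526 genes Spearman's rho of count with length was 0.169, and it was 0.382 across the 7982 stand-alone protein-coding genes. It was 0.064 across stand-alone antisense genes and 0.253 across stand-alone pseudogenes, so a weak relation is not particular to this class. These are descriptions across genes of 1 library, whose counts all start at the floor of 6. Between count per kb and length rho was -0.864. Since length is the divisor and the floor allows no lower count, a negative value is built into that measure. Of the 28 stand-alone lincRNA genes under 2 kb the median count was 15, beside 13 in protein-coding genes of that length. It was 11 beside 20 from 2 to 10 kb, 14.5 beside 29 from 10 to 30 kb and 12 beside 58 from 30 to 100 kb. From 100 kb on, 119 lincRNA genes had a median of 21 and 1428 protein-coding genes one of 83.5. In the longest class 9.24% of lincRNA genes and 44.5% of protein-coding genes had 100 counts or more. Of the 20 highest stand-alone lincRNA genes, 11 were 100 kb or longer.

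**Figure D3:**
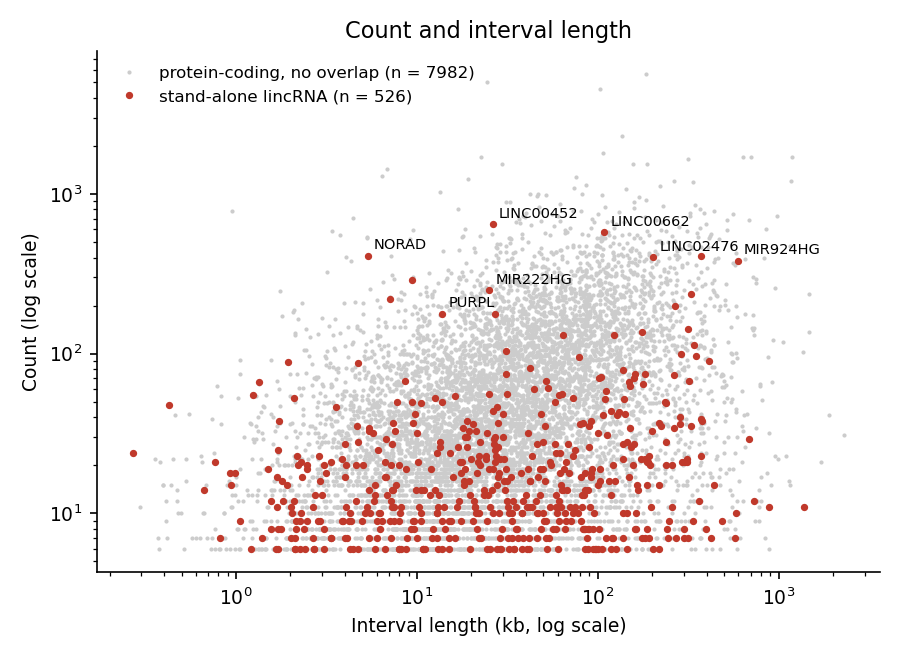
Count against interval length (both on log scales) for stand-alone lincRNA genes (red, n = 526) and stand-alone protein-coding genes (grey, n = 7982), with 7 of the highest lincRNA genes named. NORAD stands out among short intervals at 411 counts, and 348 of the red points lie at 20 counts or fewer.

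**Figure D4:**
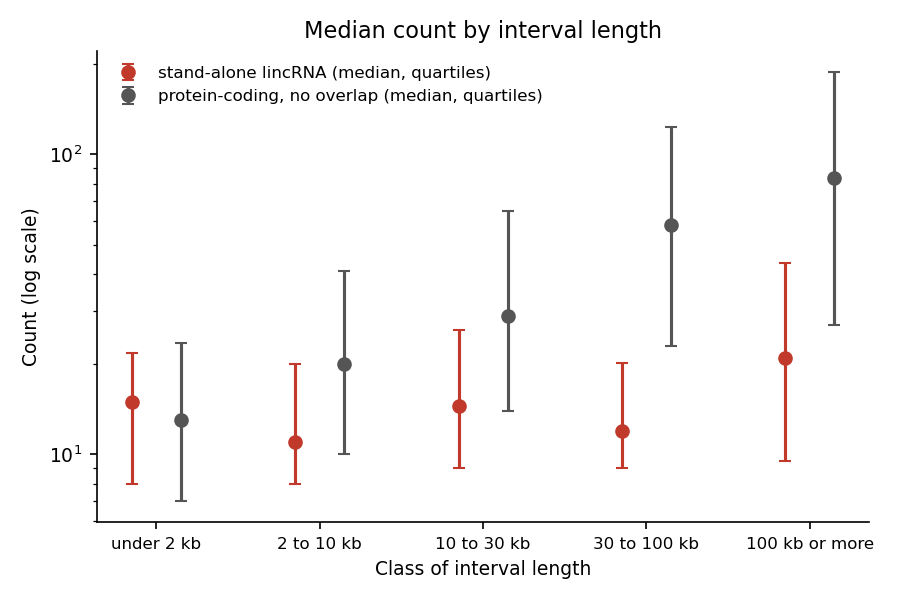
Median count (points, log scale) and quartiles (bars) of stand-alone lincRNA genes (red) and stand-alone protein-coding genes (grey) in 5 classes of interval length. The medians are 15 and 13 under 2 kb, and 21 and 83.5 at 100 kb or more.

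Hosts of microRNAs formed one functional group. MicroRNAs are short RNAs that are cut from longer transcripts and repress mRNAs through pairing of their seed, bases 2 to 8. Mature sequences (RefSeq, GRCh38.p14) of 6 hosts are shown with the seed in capitals, since the host's count covers the whole interval and does not measure these products.
hsa-miR-221-3p: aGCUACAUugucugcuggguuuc
hsa-miR-222-3p: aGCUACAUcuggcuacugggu
hsa-miR-924: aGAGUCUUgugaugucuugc
hsa-miR-22-3p: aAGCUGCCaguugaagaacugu
hsa-miR-137-3p: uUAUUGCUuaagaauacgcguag
hsa-miR-193b-3p: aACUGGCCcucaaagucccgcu
hsa-miR-155-5p: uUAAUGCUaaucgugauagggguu
The first 2, both from MIR222HG, share the seed GCUACAU, and the other 5 each have a seed of their own. MIR222HG had 249 counts (219 to 282) over 25.04 kb of chromosome X (45604639 to 45629677), or 9.94 per kb, and its nearest listed gene, the pseudogene KRT8P14, is 112 kb away with 8 counts. MIR924HG, with 383 counts over 593 kb of chromosome 18 (36786888 to 37380282), had 0.645 per kb. MIR22HG had 28 counts over 4.70 kb (5.96 per kb), MIR137HG 24 over 61.9 kb, MIR193BHG 23 over 24.1 kb and MIR155HG, the host of an immune-cell microRNA, 13 over 13.3 kb. Of 40 microRNA host genes in a list drawn up for this report, 8 were stand-alone lincRNA genes, with a median of 23.5 counts. By symbol the class held 11 microRNA hosts, 3 of them not in that list, and their median was 13. MIR9-3HG (9) and MIR181A1HG (6) completed these 8. Another 12 of the 40 were listed in other classes or overlap a listed gene, and 20 were absent from the table, which means under 6 counts or not among the features counted.

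A list of lincRNAs reported in cancer spread over the range of the class. Of its 41 genes with an identifier, 10 were stand-alone lincRNA genes, with counts from 7 to 56 and a median of 13. The list is not complete: LINC00662 (577) and LINC00958 (177), also reported in cancer, are not in it, so its median and highest count do not stand for cancer lincRNAs in general. LINC00707 had 56 counts (63.3 kb), LINC01605 had 53 (72.6 kb) and LUCAT1 had 37. CASC9 had 20, PCAT1 14 and LINC00589 12. CRNDE, named for its expression in colorectal neoplasia, had 9, and DRAIC and NBAT1, described in prostate cancer and neuroblastoma, had 8 each. Of 21 genes in a list of well-studied lincRNAs, put together for roles in the nucleus or in chromatin, 3 were in this class, namely PURPL (178), LINC00667 (8) and NORAD (411), although NORAD acts largely in the cytoplasm. Another 8 were listed elsewhere in the table and 10 were absent.

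Of 27 lincRNAs chosen for neural, pluripotent, liver, heart, blood or germ cells, 3, with a median of 17 counts, were stand-alone genes of this table. LINC00926, described in B cells, had 37 counts (7.40 kb), LINC01194 had 17 and LINC00861, described in lymphocytes, had 7. A further 2 were listed in other classes, PANTR1 with 22 and RMST with 8, and 22 were absent from the table.

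The counts of stand-alone lincRNA genes and of their nearest listed genes showed almost no rank relation. The nearest listed gene was within 1 kb for 59 genes, within 1 to 5 kb for 58 and more than 100 kb away for 152. It was protein-coding for 320 (60.8%) and itself a stand-alone lincRNA gene for 78. A gene with under 6 counts is absent from the table, so a nearer gene may exist. The count was below that of the nearest listed gene in 369 of 526 (70.2%). No such share was computed for other listed genes. The median of the class was 14 and that of all listed genes 31, which 107 of the 526 exceeded. Most of the class thus lay at or below the median listed gene, whatever the neighbour. Per kb, 35 of 59 genes within 1 kb and 104 of 152 beyond 100 kb were below the neighbour, where by count 44 and 99 were. Spearman's rho between the pair of counts was 0.0058 across the 526 genes, with some genes serving as neighbour to more than 1. In the 59 genes within 1 kb it was -0.088. For counts per kb it was 0.258. The median count was 14 within 1 kb, 15.5 from 1 to 5 kb, 14 from 5 to 20 kb, 13 from 20 to 100 kb and 17 beyond 100 kb. Their median interval was 10.0 kb within 1 kb, 9.35 kb from 1 to 5 kb and 69.6 kb beyond 100 kb. Of the 20 highest genes, 3 (LINC00662, ENSG00000259758 and ITGB1-DT) had a listed gene within 5 kb.

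**Figure D5:**
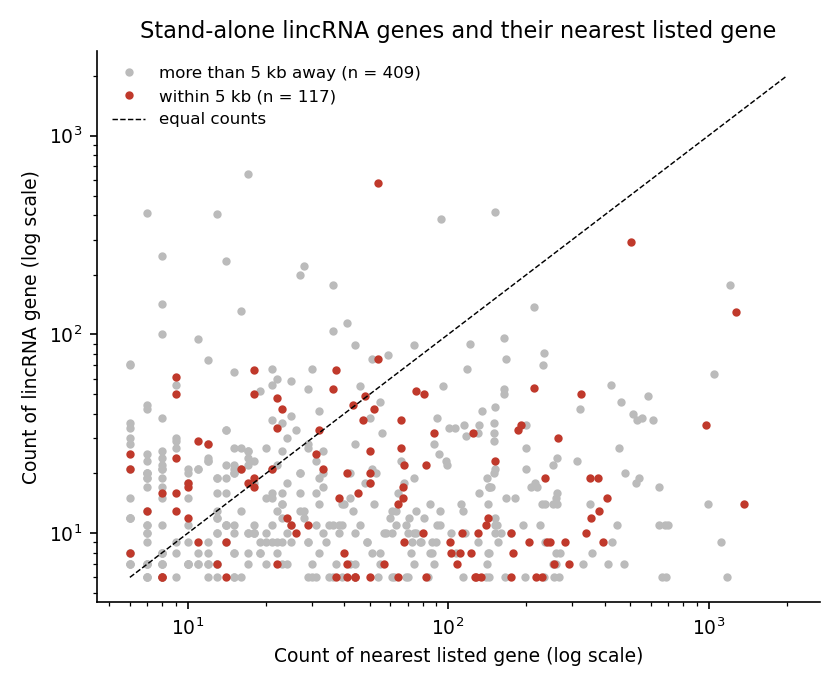
Count of each stand-alone lincRNA gene against the count of its nearest listed gene (both on log scales), red where that gene lies within 5 kb (n = 117) and grey where it lies farther (n = 409). Most points, 369 of 526, lie below the dashed line of equal counts, and the red points show no trend. The same share was not computed for other listed genes.

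Where a neighbour was close and both strands were known, the pair was mostly arranged head to head. Strands are not in the deposited table and were taken from RefSeq by symbol. Both strands were found for 34 of the 117 genes with a listed gene within 5 kb. For the other 83 the arrangement is not known here. Of these 34, 28 pointed away from their neighbour with their starts facing each other, or 82.4% (65.5 to 93.2%). Another 5 were on the same strand and 1 was tail to tail. Among stand-alone protein-coding genes with a listed gene within 5 kb, 611 of 1626 genes with known strands (37.6%) were head to head. This difference was not tested, and 18 of the 28 carry a symbol ending in DT or AS with a number, names that are given for the relation to a neighbouring gene. The 5 kb distance was chosen with the data in view. The 28 include both genes of 2 pairs, FAM225A with FAM225B and LINC01356 with LINC01357. The median count of the 28 was 12 and that of their neighbours 61, of which 21 were protein-coding. In 7 of the 28 the lincRNA gene had more counts than its neighbour, led by LINC00662. MIR22HG, with 28 counts against 12 for WDR81, was another.

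Divergent transcripts, whose symbols end in DT, are named after the protein-coding gene with which they share a promoter region. The class held 22 of them, with counts from 6 to 130 and a median of 11. The gene they are named for was listed for 20, at a median distance of 0.18 kb, and 18 of these 20 had fewer counts than that gene. ITGB1-DT had 130 counts (109 to 154) over 123 kb of chromosome 10 (33247773 to 33371030), and ITGB1, for the integrin beta-1 chain, had 1273 at a distance of 0.635 kb. Per kb the values were 1.05 and 22.0. SUCLG2-DT had 19 beside 351 for SUCLG2, a mitochondrial enzyme gene, and CTDP1-DT had 6 beside 230 for CTDP1, a phosphatase gene. NETO1-DT had 6 beside 218, VPS13B-DT had 7 beside 254 and PSMD7-DT had 8 beside 111. RIPK2-DT and BAIAP2-DT were the 2 exceptions, with 66 counts beside 18 for RIPK2, an immune signalling kinase gene, and 34 beside 22 for BAIAP2. OSMR-DT (52 beside 75 for OSMR, a cytokine receptor gene) and HCCS-DT (42 beside 52) came close to their partner. Of the 10 genes with AS symbols, 7 had a listed partner and 5 of these had fewer counts than it. Per kb, 4 of these 7 were below their partner. SLC44A3-AS1, with 75 counts, exceeded SLC44A3 with 54, but per kb it had 0.413 beside 0.723.

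Stand-alone lincRNA genes also occurred in runs with no other listed gene between them. There were 56 such runs, which held 122 of the 526 genes, 47 of them pairs, 8 of 3 genes and 1 of 4. The run with 4, over 1325 kb of chromosome 11 (115204296 to 116528969), held ENSG00000256972 (17 counts), ENSG00000255580 (8), LINC02698 (7) and LINC02702 (38). ENSG00000255322, LINC02742 and ENSG00000254526 followed each other over 915 kb of chromosome 11 with 137, 114 and 41 counts, the highest sum among runs of 3 or more. On chromosome 18, ENSG00000264015, LINC01029 and ENSG00000264334 had 52, 55 and 46 counts over 565 kb (75133575 to 75698566). Counts within a run could also be far apart. MIR181A1HG, LINC02789 and LINC00862 on chromosome 1 had 6, 7 and 104, LINC00298 and LINC00299 had 8 and 143, and LINC00452 and SWINGN had 645 and 17.

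The genes were unevenly spread over the chromosomes. They made up 6.27% of the listed genes of chromosome 18 (19 of 303, 3.82 to 9.62%), 6.22% of chromosome 21 (12 of 193) and 5.28% of chromosome 14 (33 of 625). The share was 1.66% on chromosome 19 (15 of 903, 0.933 to 2.73%), 1.22% on chromosome 22 and 1.14% on chromosome X (7 of 616). Chromosome Y had 0 of 16. The median count per chromosome lay between 10 (chromosomes 7 and 10) and 26 (chromosome 13, 7 genes). On 6 chromosomes a single gene held more than 50% of the class's counts: LINC00452 with 645 of 796 on chromosome 13, MIR222HG with 249 of 350 on X, NORAD with 411 of 584 on 20, LINC00662 with 577 of 822 on 19, LINC02476 with 404 of 698 on 7 and MIR924HG with 383 of 713 on 18. The number of DNA copies of these regions in U2OS was not analysed here.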

How the data were processed

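RNA recovered by PAR-CLIP of CTCF in U2OS cells was analysed as 1 deposited table of whole-number counts per Ensembl gene, made by the authors from the merge of 2 biological replicates, per the labels. The submitters' processing notes name hg19, Bowtie and bedtools, without versions. How reads that repeat or map to several places were handled, and whether strand was used, is likewise not given in the sources used here. None of the deposited counts is scaled for depth or length and none is under 6. They sum to 1322047, which is not the library size, since genes under 6 counts and reads outside listed genes are not in it. Intervals were read as 1-based and closed, and a gene was kept if it shared no base with another listed interval. Symbols came from a table of Ensembl identifiers (455 of 526 matched), RefSeq classes from 241 symbols and promoter windows from 158. Python 3.11.15, pandas 2.3.3 and SciPy 1.17.1 were used, and the interval functions were tested on simulated data. Named genes are the 20 highest by count, the 10 highest per kb with at least 10 counts, the 5 longest and 5 shortest, the 5 highest with no listed gene within 100 kb and listed members of 4 gene lists, with up to 8 genes a list, except that the cancer list is given with 9. Genes in the head-to-head, divergent, run and chromosome paragraphs were chosen after their values were seen, as were those analyses. The genes and lists were chosen with earlier results of these data known.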

Additional observations from a re-analysis of the deposited data

How the results depend on the processing

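The number of stand-alone lincRNA genes was 526, and 467 or 409 when no other listed gene was allowed within 1 or 5 kb, 365 at 10 counts or more and 534 with the named genes kept in. The median count stayed at 14 in each of these settings, except at 10 counts or more, where it was 20 because lower genes are removed. It was also 14 among the 455 genes matched for symbols, but 213 of these carry an identifier in place of a name. Among the 229 genes that RefSeq classes as lncRNA by symbol it was 17. The share of the 10 highest genes moved from 25.2% to 37.5% per kb, 27.3% at 10 counts or more and 28.1% without genes within 5 kb. It was not computed with the named genes kept in. The share with 100 counts or more was 3.80%, and 4.16% and 4.49% under its 2 alternatives. The difference in median count from stand-alone protein-coding genes was -24 counts and -0.879 counts per kb. By length it reversed to 2 under 2 kb (28 lincRNA genes) and was -9 from 2 to 10 kb, -14.5 from 10 to 30 kb, -46 from 30 to 100 kb and -62.5 at 100 kb or more, and the cause was not tested. The correlation with length was 0.169, and 0.188 at 10 counts or more and 0.175 without genes within 5 kb. That with the count of the nearest listed gene was 0.0058, and 0.258 per kb and 0.031 beyond 5 kb. Depth limits the 51 genes at 6 counts, whose order is not resolved. No paired analysis was possible because the table holds 1 merged value a gene, and leaving out a replicate could not be run for the same reason.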

Other observations

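The 6 genes whose current symbol is protein-coding in RefSeq had a median of 20.5 counts and none more than 35. They include C20orf204 (35 counts) and DYNLL2 (27), a dynein light chain gene. The 155 genes with LINC symbols had a median of 18 counts and an interval of 46.6 kb, the 213 known by identifier alone a median of 11 and 29.1 kb, and the 71 without a name a median of 14 and 7.52 kb.

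Some of these genes belong to families of similar copies, and how the authors' alignment divided reads among copies is not known here. The 9 genes with FAM symbols had counts from 7 to 29 with a median of 9. FAM225A and FAM225B, which lie 1.60 kb apart, had 29 and 11. TIMM23B-AGAP6 had 67 counts beside 30 for AGAP6, and CROCCP2, a transcribed pseudogene, had 54.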
